A study of Homo sapiens with 4 samples.

Results

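The 7 genes described here encode the ISG15 conjugation system and a second interferon-inducible modifier, UBD. They were chosen by name: ISG15, UBA7, UBE2L6, HERC5, HERC6, USP18 and UBD, with every probe that the platform annotation pairs with them. Earlier results of these data were known when these genes, the gene lists and the markers were chosen, so the counts below are descriptions. They carry 9 probes, out of 30111 probes with 1 gene symbol, and are 7 of 20045 genes measured. Expression was read on 4 Illumina bead arrays, 1 per group, of macrophages derived from THP-1, a long-established human line of acute monocytic leukaemia. The M0 group was left unpolarised, the M1 group received interferon-gamma and lipopolysaccharide (LPS), the M2a group interleukin-4 (IL-4) and the M2c group interleukin-10 (IL-10). All groups share the single THP-1 background. The labels name the agents without dose or exposure time and refer to an earlier article for the procedure, including how THP-1 cells were made into macrophages. With 1 array per group no difference below has a replicate check, no test was run, and array, culture and group cannot be told apart.

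ISG15 is a small ubiquitin-like protein that interferon induces strongly and that cells attach to lysines of other proteins, a step called ISGylation. UBA7 is the activating enzyme that loads ISG15, UBE2L6 the conjugating enzyme that takes it over, and HERC5 the main human ligase that places it on newly made proteins. HERC6 is a related ligase that does this work in mice. USP18 removes ISG15 from its targets and, apart from that, binds the type I interferon receptor and damps its signal. UBD, also called FAT10, is another ubiquitin-like modifier, induced by interferon-gamma and tumour necrosis factor, which sends its targets to the proteasome and is loaded by other enzymes, UBA6 and UBE2Z.

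Promoter windows of 5 of the 7 genes were read from the RefSeq promoter table (GRCh38.p14), which spans 250 bases before to 50 bases after each gene start. 4 of them are printed because they hold the motifs found, or because the gene lies beside one that does. Capitals mark matches, searched on both strands. The interferon-stimulated response element (ISRE) was searched as GAAA, any 2 bases and again GAAA. The gamma-activated site (GAS) was searched as TTCNNNGAA, and the STAT6 form of it with 1 more free base between TTC and GAA. NF-kappaB sites were searched as GGG, any 2 bases and TTTCC, and as GGG, any 3 bases and TTCC, forms that can overlap each other.
ISG15, chr1:1013247-1013546, plus strand: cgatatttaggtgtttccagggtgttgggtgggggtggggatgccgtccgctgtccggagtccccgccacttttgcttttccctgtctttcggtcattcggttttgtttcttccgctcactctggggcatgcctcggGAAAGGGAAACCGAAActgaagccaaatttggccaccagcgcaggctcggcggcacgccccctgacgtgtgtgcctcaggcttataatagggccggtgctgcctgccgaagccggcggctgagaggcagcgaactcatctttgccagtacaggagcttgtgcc
HERC5, chr4:88456869-88457168, plus strand: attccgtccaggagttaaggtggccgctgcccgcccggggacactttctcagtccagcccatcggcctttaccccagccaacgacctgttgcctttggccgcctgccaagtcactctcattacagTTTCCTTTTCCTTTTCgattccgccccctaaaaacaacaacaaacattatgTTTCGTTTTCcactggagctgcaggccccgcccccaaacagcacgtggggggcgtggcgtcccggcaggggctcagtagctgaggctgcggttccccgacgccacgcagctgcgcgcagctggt
HERC6, chr4:88378602-88378901, plus strand: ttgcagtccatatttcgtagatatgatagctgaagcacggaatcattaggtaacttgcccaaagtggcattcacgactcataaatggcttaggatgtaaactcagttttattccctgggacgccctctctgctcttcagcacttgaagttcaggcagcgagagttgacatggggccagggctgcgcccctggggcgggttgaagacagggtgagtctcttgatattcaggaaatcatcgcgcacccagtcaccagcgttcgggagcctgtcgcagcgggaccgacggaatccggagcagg
UBD, chr6:29559683-29559982, minus strand: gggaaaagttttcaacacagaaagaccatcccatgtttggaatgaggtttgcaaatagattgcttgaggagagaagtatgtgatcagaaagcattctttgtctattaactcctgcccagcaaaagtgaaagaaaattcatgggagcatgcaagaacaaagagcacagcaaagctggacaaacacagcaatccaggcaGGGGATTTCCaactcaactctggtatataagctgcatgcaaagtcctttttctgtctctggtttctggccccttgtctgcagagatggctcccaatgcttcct

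The ISG15 window held 2 overlapping ISRE matches on the strand of the gene, at -113 to -104 and -107 to -98 from the start site. The HERC5 window held 3 on the opposite strand, of which those at -125 to -116 and -119 to -110 overlap and the one at -74 to -65 stands alone. Of all 35116 promoter windows 3.57% held at least 1 such match. The UBD window held no ISRE match and 1 stretch at -53 to -44 that matched both NF-kappaB forms, present in 1.91% and 6.52% of windows. The HERC6 window and both UBE2L6 windows held no match to any motif, and no window of these genes held the GAS form (7.66% of windows) or the STAT6 form (6.44%). These matches describe letters in a window and are not binding data. HERC6 and HERC5 lie side by side on chromosome 4 (88378852 to 88443097 and 88457119 to 88506163), with 14021 bases and no annotated gene between them. ISG15 lies on chromosome 1, UBA7 on chromosome 3, UBD on chromosome 6, UBE2L6 on chromosome 11 and USP18 on chromosome 22.

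A probe was taken as detected where its detection p-value, computed against the negative-control beads of the array, was below 0.01. The arrays detected 12937 (M1) to 14818 (M0) of 47228 probes, with median non-normalized signals of 102.9 to 110.9 intensity units. Of 10 monocyte and macrophage markers 9 were measured, and all 9 were detected on every array. In normalized values 4 of the 9 were at least 2-fold lower on M1 than on M0, and 1 was higher. Fibroblast markers and epithelial markers (3 each) were detected on none. Of 4 measured T cell markers CD2 alone was detected, on M1 (128.4 intensity units, against 114.1 to 119.7 on the others), and the CD3 chains were detected on no array. Of 3 measured B cell markers CD79B was detected on every array (165.2 to 263.2 units) and CD79A on M0 (130.2 units). All 6 M1 markers were detected on the M1 array and 2 on each of the others. All 5 M2a markers were detected on the M2a array and 2 to 4 elsewhere. All 4 M2c markers were detected on the M2c array and 2 or 3 elsewhere. In normalized values all 6 M1 and all 5 M2a markers were at least 2-fold above M0 on their own array. So were 3 of the 4 M2c markers, while CD163 was at 0.60 on the log2 scale. The M2c marker C1QB was brighter on M1 (6172.3 units) than on M2c (2437.7), and 2 of 4 tested M2a markers were also at least 2-fold higher on M1.

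A gene was said to have risen or fallen where its normalized log2 values differed by at least 2-fold (1 on the log2 scale) and it was detected on at least 1 of the 2 arrays. Non-normalized signals are given first for each member, and log2 differences come from the background-corrected, quantile-normalized values. Signals of different probes are not compared in level. The total RNA of a culture was measured, so fewer responding cells and less RNA per cell cannot be told apart.

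The whole ISG15 system and UBD were higher on the M1 array than on the M0 array. All 7 members rose and 0 fell. The 6 members detected on both arrays rose by 1.51 to 3.28 on the log2 scale, and UBD, undetected on M0, by a bound given with its values. Across all 9986 genes tested 15.0% rose and 19.0% fell by the same rule. The members had a median log2 difference of 2.11, against -0.18 over all genes. Of the genes past the rule 44.0% were higher on M1, or 61.3% with arrays scaled to a common median, which moved the median of all genes to 0.08. Relative to the median of all genes the lowest member lay 1.70 higher by the main method and 1.87 higher by common-median scaling.

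ISG15 itself read 4632.0 units on M0, 20751.0 on M1, 2926.0 on M2a and 4354.8 on M2c. It was thus bright on every array, highest on M1 and lowest on M2a. It rose 4.31-fold on M1 (2.11 on the log2 scale), rank 461 of 9986 from the largest rise. The brightest probe of the M1 array read 27775.4 units, so the M1 signal of ISG15 lies near the upper end of that array, and whether this compressed its fold was not tested.

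UBA7, the activating enzyme, read 1254.7 units on M0, 2825.6 on M1, 1142.6 on M2a and 1354.1 on M2c. M1 stands apart and the other 3 arrays lie close together. UBA7 rose 2.85-fold on M1 (1.51), the smallest rise of the members, and 16.6% of all genes were at least as far from 0 in either direction.

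UBE2L6, the conjugating enzyme, was read by 3 probes. Its brightest probe read 3780.0 units on M0, 13541.5 on M1, 3500.7 on M2a and 3965.1 on M2c. The second probe read 185.8, 464.3, 196.4 and 188.5 units in the same order, and it too was highest on M1. The rise on M1 was 3.58-fold by the brightest probe (1.84) and 6.07-fold by the second (2.60). The third probe, which is annotated to another transcript of UBE2L6, was detected on no array (85.2 to 102.7 units).

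HERC5, the main ligase in human cells, read 891.5 units on M0, 3929.6 on M1, 346.2 on M2a and 1089.1 on M2c. It spans the widest range of the members detected on all arrays, with M1 at the top and M2a at the bottom. HERC5 rose 5.80-fold on M1 (2.54), rank 310 of 9986. Its neighbour HERC6 read 649.3 units on M0, 1356.7 on M1, 336.9 on M2a and 738.8 on M2c, the same order of arrays over a narrower range. HERC6 rose 2.97-fold on M1 (1.57), rank 773.

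USP18, the ISG15 protease, read 523.7 units on M0, 3469.0 on M1, 411.7 on M2a and 490.8 on M2c. The M1 array stands alone, and the other 3 differ little. USP18 rose 9.72-fold on M1 (3.28), rank 164 of 9986, the largest rise of the members that were detected on both arrays. A pseudogene of USP18, USP41P, lies on the same chromosome 22, and whether the USP18 probe also reads it was not tested.

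UBD read 251.2 units on M1, the one array where it was detected, against 99.7 on M0, 109.5 on M2a and 103.4 on M2c. The detection p-values on the other arrays were 0.65455, 0.22597 and 0.46104, so the signals there have no order. UBD was at least 6.63-fold higher on M1 than on M0, a bound set by the lowest detected signal on M0. The bound holds for the main method: the measured log2 difference was 3.55, and 1.81 without background correction, which is a smaller fold than the bound.

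**Figure D1:**
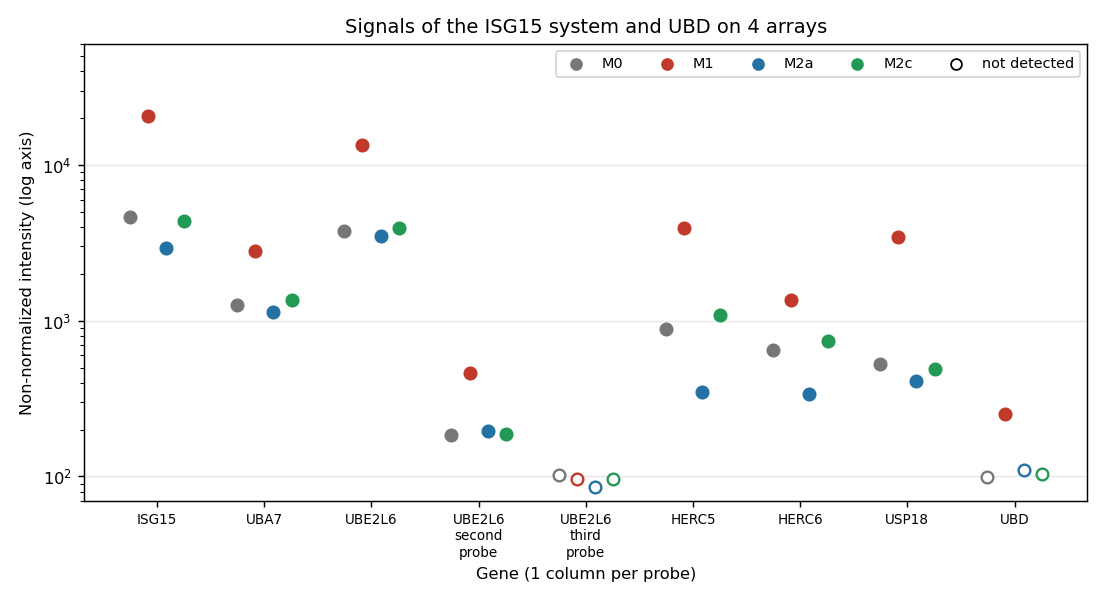
Non-normalized intensity (log axis) of each probe of the 7 genes on the M0, M1, M2a and M2c arrays, 1 point per array, with open circles where the probe was not detected. M1 is the highest point for every detected probe, and M2a is the lowest for ISG15, UBA7, HERC5, HERC6, USP18 and the brightest UBE2L6 probe.

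Under IL-4 HERC5 had the largest fall, HERC6 passed the rule by little and the other tested members did not pass it. On M2a 2 of 6 tested members fell against M0 and 0 rose, where 5.04% of 9860 genes fell and 4.09% rose. UBD was detected on neither array and was not tested. HERC5 fell 3.01-fold (-1.59), and 75 genes had a larger fall, so that it held rank 76 of 9860 from the largest fall. HERC6 fell 2.15-fold (-1.10), rank 376, and this fall ended without background correction and in the authors' deposited values, where the difference was -0.89. ISG15 was at -0.83 without background correction, so HERC6 lay close to ISG15 there. Of all genes past the rule 44.8% were higher on M2a, or 57.6% in the authors' values.

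The other 4 tested members lay below 0 without passing. The log2 difference of ISG15 on M2a was -0.85, a 1.80-fold difference, and 13.8% of all genes were at least as far from 0. USP18 was at -0.36, UBE2L6 at -0.24 and UBA7 at -0.20, sizes that 49.6%, 63.6% and 69.8% of genes matched or passed. The second UBE2L6 probe pointed the other way, at 0.29. All 6 tested members thus had a value below 0, as did 51.0% of all genes, and the members' median was -0.60 against -0.01 over all genes.

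The M2c array differed little from M0 for these genes. Of 6 tested members 0 rose and 0 fell, in a comparison where 0.677% of 9604 genes rose and 0.448% fell. HERC5 had the largest value at 0.24, and USP18 the lowest at -0.22. ISG15 was at -0.16, HERC6 at 0.12, UBE2L6 at 0.04 and UBA7 at 0.03. Of the 6 tested members 4 were above 0 and 2 below, and their median was 0.03 against -0.01 over all genes. These sizes were common on this array, as 39.5% of all genes were at least as far from 0 as HERC5 and 91.1% as UBA7. Of the few genes past the rule 60.2% were higher on M2c, or 83.3% in the authors' values.

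**Figure D2:**
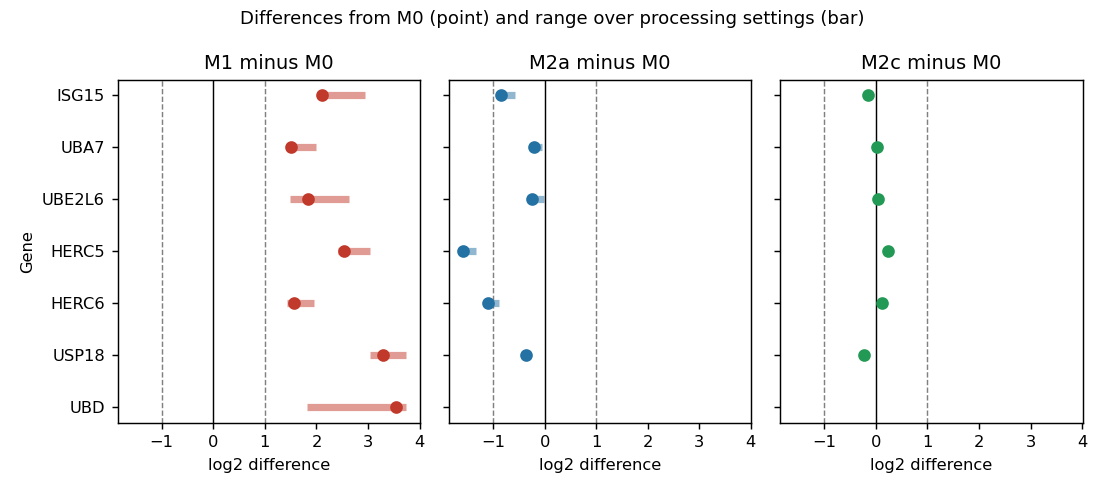
Log2 difference from M0 of each gene on M1, M2a and M2c (point, main method), with the range over the processing alternatives (bar) and dashed lines at 2-fold. All 7 points lie past 2-fold on M1, HERC5 and HERC6 lie past it on M2a, and none does on M2c.

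Between the polarised groups M1 was the higher array for every member. Against M2a all 7 members rose and 0 fell, where 15.7% of 9791 genes rose and 18.0% fell. HERC5 led with a 17.5-fold difference (4.13, rank 93), since it was high on M1 and low on M2a. USP18 was 12.4-fold higher (3.64), ISG15 7.75-fold (2.95), HERC6 6.39-fold (2.68), UBE2L6 4.24-fold (2.08) and UBA7 3.27-fold (1.71). UBD was at least 6.25-fold higher, with a measured log2 difference of 3.30 that was 1.66 without background correction. The members' median was 2.95 against -0.17 over all genes.

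Against M2c all 7 members rose on M1 and 0 fell, where 16.3% of 9676 genes rose and 21.4% fell. USP18 was 11.4-fold higher (3.51), HERC5 4.91-fold (2.30), ISG15 4.83-fold (2.27), UBE2L6 3.49-fold (1.80), UBA7 2.79-fold (1.48) and HERC6 2.74-fold (1.46). UBD was at least 5.79-fold higher, and its measured log2 difference fell from 3.46 to 1.75 without background correction. Of all genes past the rule 46.7% were higher on M1 than on M2a and 43.2% higher than on M2c, or 61.7% and 60.2% with common-median scaling. The comparisons of M1 with M0, M2a and M2c share the M1 array, and those of M0 share the M0 array, so they are not independent.

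Between M2a and M2c HERC5 and HERC6 again differed most. Of 6 tested members 2 fell and 0 rose, where 6.98% of 9607 genes were lower on M2a and 4.81% higher. HERC5 was 3.56-fold lower on M2a (-1.83, rank 42 from the largest fall) and HERC6 2.33-fold lower (-1.22). The HERC6 difference was -0.99 without background correction and in the authors' values, short of the rule. ISG15 was at -0.68, UBE2L6 at -0.28, UBA7 at -0.23 and USP18 at -0.13, none of which passed. Of all genes past the rule 40.8% were higher on M2a, or 51.0% in the authors' values.

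Among the 6 members detected on all arrays the order of the arrays was nearly the same. M2a was the lowest and M1 the highest for all 6 by the main method, without background correction, with an offset of 50 and in the authors' values, and for 5 with common-median scaling, where UBE2L6 was lowest on M2c. M0 and M2c held the middle: M2c was above M0 for HERC5, HERC6, UBA7 and UBE2L6 and below it for ISG15 and USP18. With no replicates the spread of neighbours in this order is unknown, and only M1 against the array next to it, and HERC5 and HERC6 on M2a against M0, were 2-fold apart. The members differed in how alike they were. UBA7 and UBE2L6, the activating and conjugating enzymes, lay 0.33 apart in their 3 log2 differences from M0 (Euclidean distance over 4 arrays). This was the smallest distance of the 21 pairs, and it rests on the brightest UBE2L6 probe. The second UBE2L6 probe was at 2.60, 0.29 and -0.04 on M1, M2a and M2c, where UBA7 was at 1.51, -0.20 and 0.03. Its distance was not computed, so the closeness of this pair holds for the brightest probe alone. HERC5 and HERC6 both lay closer to ISG15 (0.95 and 0.66) than to each other (1.09). UBD was at background on 3 of the 4 arrays, so its distances are not given, and among the other members HERC6 and USP18 lay farthest apart, at 1.90.

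**Figure D3:**
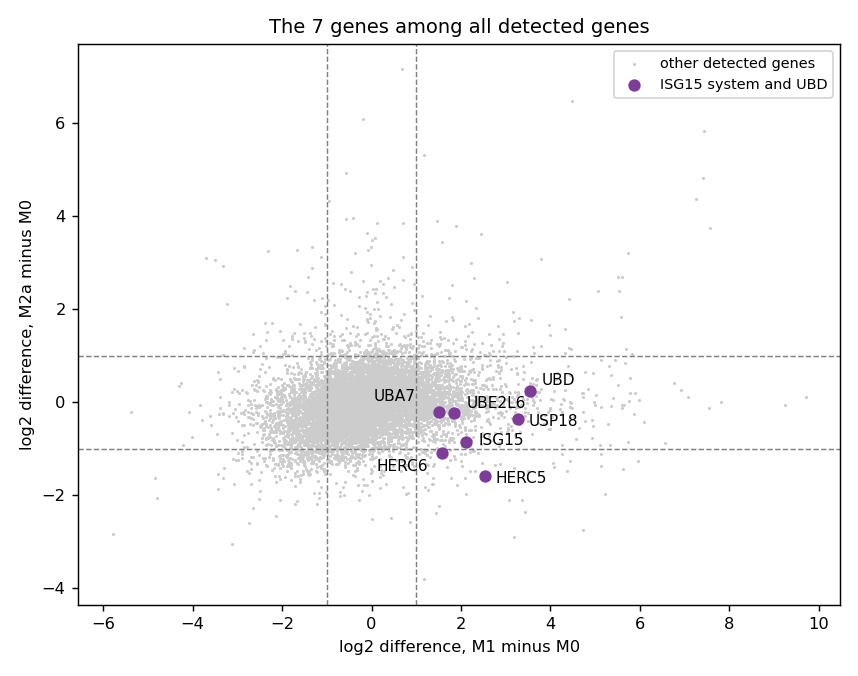
Log2 difference from M0 on M2a (vertical) against that on M1 (horizontal) for every detected gene (grey) and the 7 genes (purple), with dashed lines at 2-fold. All 7 lie to the right of 1 on the M1 axis, HERC5 and HERC6 also lie below -1 on the M2a axis, and UBD, undetected on M0 and M2a, is drawn at 0.25 on that axis, which is background signal.

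The genes most like each member were sought among 10388 other detected genes by the same distance. Distances are given for the genes that were themselves detected on all 4 arrays. For ISG15 they were PLD1 (0.06), PANX1 (0.23) and PIM1 (0.25). For UBE2L6 they were MCTP1 (0.10) and PSME2 (0.12), beside NR4A2, which was detected on 3 arrays. HERC5 had more distant neighbours, NT5C3A (0.30) and NFKBIZ (0.35), beside NAV3, detected on 3 arrays. For HERC6 they were DDX51 (0.21), DDIT3 (0.22) and CASP1 (0.28). For USP18 it was H2AC19 (0.05), while HLA-DOB and GBP3 were detected on 1 and 2 arrays. The nearest genes of UBA7 (FOXD4L4, RCAN2 and NKX2-2) were each detected on 1 array, so part of their likeness is background signal. UBD, itself detected on 1 array, was not compared. The likeness rests on 4 arrays and describes these values alone. Probes of H2AC19 and FOXD4L4 can read close paralogs.

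Known partners of ISG15 had counts on M1 near those of all genes. Of 13 genes 2 rose and 3 fell, where 15.0% of all genes rose and 19.0% fell, and the median log2 difference was 0.01. With common-median scaling 4 rose. RNF213, a large ligase that binds ISGylated proteins, rose by 2.71 (1.75 for its other probe). ARIH1, another ligase reported for ISG15, rose by 1.27, but was at 0.94 in the authors' values. SKP2, which directs the degradation of USP18, fell by 2.11, from 1001.0 units on M0 to 213.2 on M1. Of deubiquitinases with reported activity on ISG15, USP24 was at -1.09 and -0.69 in the authors' values. USP14 was at least 1.62-fold lower and undetected on M1, with -0.61 in the authors' values. Its other probe was at -0.61 by the main method and did not pass. TRIM25, a ligase for ISG15 in human cells, was at 0.16. UBE2E1 was at 0.47 and did not pass, but its other probe was at 1.13. The other probes of ITGB2, USP16 and USP21, which did not pass on M1 either, were at -0.55, -0.85 and 0.16.

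Proteins reported to carry ISG15 were next. Of 15 genes 13 were measured, and on M1 3 of them rose and 0 fell (15.0% and 19.0% of all genes), with a median of 0.71. The RNA sensor RIGI rose by 2.27, IFIT1, which binds viral RNA, by 1.92 (3.17 for its other probe) and the RNA sensor IFIH1 by 1.68. With common-median scaling 7 rose. On M2a 5 of 12 tested genes fell and 0 rose (5.04% and 4.09% of all genes), with a median of -0.66. IFIT1 fell by 1.78 (-0.49 for its other probe), IFIH1 by 1.40, EIF2AK2, the kinase PKR, by 1.38 and the antiviral GTPase MX1 by 1.13 (-0.84 with common-median scaling). RIGI, named after its value was seen, was at least 2.05-fold lower, but at -0.42 in the authors' values. By the main method 10 of the 13 on M1 and 7 of the 12 on M2a passed in neither direction. Among those on M1, PML was at 0.79 by a dim probe (126.8 units) but at 1.83 by its other detected probe. CHMP5 was at 0.67, and its other probes had a mean of 0.95. The medians thus do not describe every substrate.

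Enzymes and partners of UBD had counts on M1 near those of all genes too. Of 9 genes 2 rose and 1 fell, where 15.0% of all genes rose and 19.0% fell, and the median was 0.42. UBE2Z, the conjugating enzyme of UBD, rose by 2.14 (3.17 for its other probe), from 943.8 units on M0 to 3153.8 on M1, and stayed near M0 on M2a (1028.4) and M2c (905.4). NUB1, which binds UBD and speeds its degradation, rose by 2.31, from 487.7 to 1577.1 units. UBA6, the activating enzyme of UBD, was at 0.42 and did not pass. SQSTM1 was at 0.75 and did not pass, but was at 1.53 with common-median scaling. MAD2L1, a spindle checkpoint protein that UBD binds, fell by 1.77 on M1 and by 1.23 on M2a (-0.99 in the authors' values).

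Genes of other ubiquitin-like systems were few, and with 15.0% of all genes rising on M1 a count of 0 among so few is near the background. Of 7 measured genes for ubiquitin and other modifiers 0 rose and 0 fell on M1, with a median of -0.29. The ubiquitin gene UBB was at 0.22 (0.79 for its other probe), or 0.99 with common-median scaling. NEDD8 was at -0.30 (0.65 for its other probe), or 0.31 with that scaling. Of 6 tested activating enzymes other than UBA7, 0 rose and 2 fell: NAE1, a subunit for NEDD8, by 1.26 and SAE1, a subunit for SUMO, by 1.07 (-0.60 with common-median scaling). Under common-median scaling 1 activating enzyme rose. Of 4 measured relatives of HERC5 and HERC6, 0 rose and 2 fell: HERC1 by 1.76 and HERC2 by 1.62. HERC3, which lies 17679 bases beyond HERC5 on chromosome 4, was undetected on M1 and at -0.59.

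Genes of interferon signalling, listed as background to the ISG15 system, were measured for 10 of 12 entries. On M1 3 of the 10 rose (5 with common-median scaling) and 1 fell, where 15.0% of all genes rose and 19.0% fell, and the median was 0.59. IRF1, a transcription factor of the interferon-gamma response, rose by 3.99, and IRF7, which drives type I interferon genes, by 3.18, or 3.50 by its second probe. JAK2, a kinase of the interferon-gamma receptor, rose by 1.55 (0.86 in the authors' values). IFNGR1, a chain of the interferon-gamma receptor, fell by 1.37. IFNAR2 was at -0.11 and did not pass, but its other probe was at 1.08. IRF9, the DNA-binding part of the complex that occupies the ISRE, was at 0.90 and did not pass, but was at 1.48 with common-median scaling. On M2a 1 of the 10 fell, IRF7 by 1.41 (-1.12 for its other probe). Of 8 interferon genes 6 were detected on no array. IFNB1, interferon-beta, was detected on M1 alone, at 235.1 units against 91.4 to 95.6 elsewhere, at least 6.03-fold higher than on M0. IFNL1, interferon-lambda, was also detected on M1 alone (138.8 units, at least 2.12-fold). The measured log2 differences of these genes, 3.48 and 2.02, were 1.77 and 0.90 in the authors' values. The part of these genes in the rise of the ISG15 system was not tested.

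Across these 8 lists 0 of 61 gene entries tested on M2c against M0 rose or fell, where a gene held by 2 lists counts in each. Over all genes 0.677% rose and 0.448% fell there, so a count of 0 is near the background. On M2a the partners of ISG15 had a median of -0.31, with USP16 down by 1.01 (-0.78 in the authors' values and -0.60 for its other probe). The median was -0.03 for the partners of UBD, -0.16 for the modifiers and -0.32 for the other activating enzymes. It was -0.31 for the HERC relatives and -0.45 for interferon signalling. The corresponding median over all genes was -0.01.

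**Figure D4:**
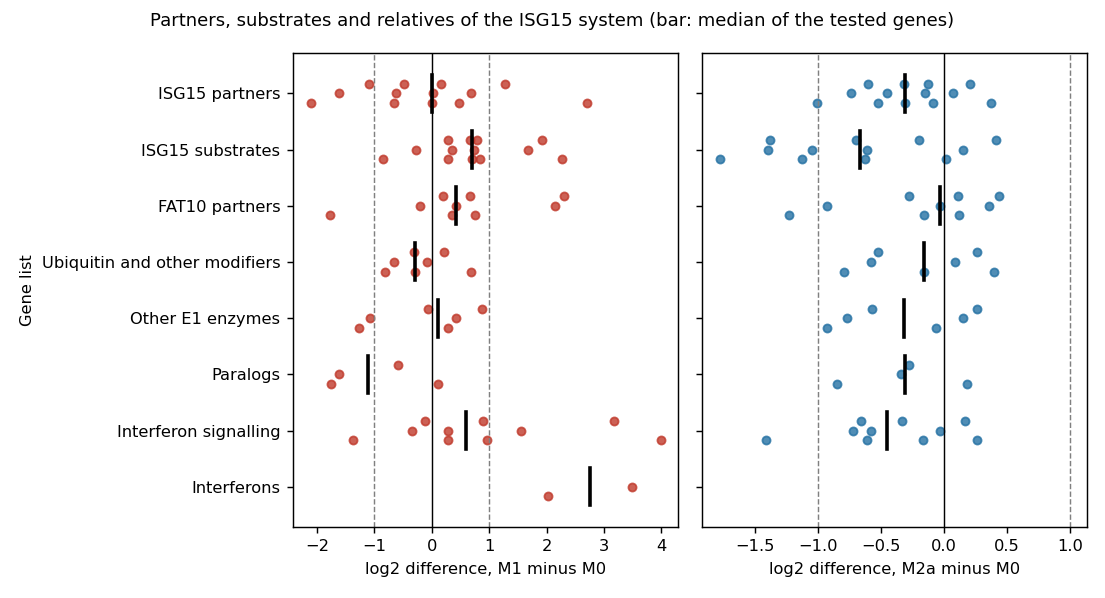
Log2 difference from M0 on M1 (left) and M2a (right) of the tested genes of each list (1 point per gene), with the median of each list as a bar and dashed lines at 2-fold. The substrates of ISG15 have a median of 0.71 on M1, where 3 of 13 rose, and -0.66 on M2a, where 5 of 12 fell. The other modifiers stay within 2-fold on both.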

How the data were processed

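Total RNA of 1 sample per group was labelled as biotin cRNA and read on Illumina bead arrays, per the labels' protocols. The deposited files hold non-normalized and normalized intensity values and detection p-values for 47228 probes, and per the submitters' processing notes GenomeStudio was used, with no version given. The deposited value table differed from the normalized intensity table in 0 cells, and 0 columns were left unmatched. Background was corrected and arrays were quantile normalized with neqc of limma 3.58.1 (R 4.3.3, offset 16), with control levels inferred from the detection p-values. The offset understates differences of dim probes. Gene symbols were updated by Entrez identifier, and a gene was represented by its probe of highest mean log2 value. Calls need a 2-fold difference and detection (p-value below 0.01) on at least 1 of the 2 arrays. Where a gene was detected on 1 of the 2 arrays, its fold is a bound against the lowest detected value of the other, or its own value there if higher. The procedure was run on simulated data made from the M0 array with known folds, and the outcome is not given here. Folds were given only to probes detected on M0 well above background. Genes undetected on M0, such as UBD and IFNB1, were thus not covered. That simulation holds no differences between cultures, so it cannot show how often single real arrays differ by 2-fold. The members, gene lists, markers and motifs were chosen with earlier results of these data known. By rule, list genes past the 2-fold rule were named, up to 4 per list and comparison. Outside it, the fifth gene of a list (USP24, RIGI) and genes short of 2-fold were named after their values were seen. Those short of 2-fold were TRIM25, UBE2E1, ITGB2, USP16 on M1, USP21, PML, CHMP5, UBA6, SQSTM1, UBB, NEDD8, HERC3, IFNAR2 and IRF9. Likeness names 3 genes per member, except for UBD. List genes without values were not analysed here. The alternatives were no background correction, offset 50, the authors' intensity values, common-median scaling (over probes detected on all arrays), normalization without M1, a detection threshold of 0.05, detection on both arrays, and the mean of all probes.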

Additional observations from a re-analysis of the deposited data

How the results depend on the processing

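The 7 rises on M1 against M0, M2a and M2c held under all alternatives that keep the gene in the comparison; with detection required on both arrays UBD could not be counted and 6 members rose. The lowest log2 differences from M0 on M1 over the alternatives were 2.09 for ISG15, 1.44 for UBA7, 1.48 for UBE2L6, 2.41 for HERC5, 1.43 for HERC6, 3.03 for USP18 and 1.81 for UBD. The count of members lower on M2a was 1 rather than 2, against M0 and against M2c, without background correction and in the authors' values, because HERC6 lay at -0.89 and -0.99. The smallest HERC5 differences on M2a over the alternatives were -1.32 against M0 and -1.54 against M2c. No member difference past the rule changed sign. Of 368 counts of the lists under alternatives, 344 stayed within 1.5 times and 24 did not, and the cause was not tested. Most list counts were 0 by the main method, among them all those on M2c. A count of 0 that stayed 0 is among the 344, so that number does not measure how stable the other counts were. Over all genes the calls on M1 against M0 numbered 1494 higher and 1902 lower by the main method, 1083 and 1208 with offset 50, and 847 and 796 in the authors' values. On M2a against M0 they were 403 and 497 against 170 and 125 in the authors' values, and on M2c against M0 65 and 43 against 20 and 4. No paired analysis was possible because each group has 1 array. Signals close to background limit UBD, the second UBE2L6 probe and the interferon genes, and 1 array per group limits every value.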
